A study of Mus musculus with 6 samples.

Results

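The genes described here are 37 genes of DNA replication and S phase in Thy1+HE- cells sorted from the mouse heart. They were chosen by name: the rows of the deposited gene reports whose symbol is one of the 37, out of 26458 symbols. All 37 were present. Of these, 25 had enough reads to be compared between groups and 12 were too low to test. The cells came from C57BL/6 hearts, collected 7 days after either a sham operation (3 libraries) or transaortic constriction (TAC, 3 libraries), in which the aorta is narrowed surgically so that the left ventricle pumps against a raised pressure. Thy1 is a surface protein of many cardiac fibroblasts, and HE is written as in the labels, which do not spell it out. The labels do not state the age of the mice or whether a library is 1 animal or a pool, so p-values measure the spread between these libraries only, which may be technical.

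Before a cell divides it copies its genome once. The MCM2-7 proteins are loaded on replication origins by the origin recognition complex with Cdc6 and Cdt1, then become the core of the replicative helicase. Polymerase alpha-primase lays the primers, polymerase epsilon copies the leading strand, and the ring-shaped clamp PCNA, placed on DNA by replication factor C, holds polymerases on their template. Ribonucleotide reductase, thymidylate synthase and related enzymes supply deoxynucleotides. Many of these genes are transcribed in late G1 and S phase under E2F transcription factors, although several are also needed for DNA repair and are read in resting cells.

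Gene counts per library summed to between 1909337 and 2056097 in sham and between 3351479 and 4207312 in TAC. The count of 3 used as a detection floor was 1.46 to 1.57 CPM (counts scaled to a common library size, here by plain totals) in a sham library and 0.713 to 0.895 CPM in a TAC library, for counting error only. All 11 cardiac fibroblast markers were detected, and they summed to 24933 to 33736 CPM in sham and 41921 to 53029 CPM in TAC. Of the 11, 4 rose (Col1a1, Col1a2, Col3a1 and Postn) and 5 fell (Pdgfra, Tcf21, Ddr2, Dcn and Dpt), so the sum does not speak for each marker. Macrophage markers summed to 72.1, 22.3 and 23.8 CPM in sham replicates 1, 2 and 3 and to 85.9, 85.0 and 249.6 CPM in TAC replicates 1, 2 and 3. Of 8 tested macrophage markers 4 rose, 2 of the 8 having passed the low-count filter through TAC libraries alone, and no sham library had a read of Ptprc (CD45, found on all leukocytes). Lymphocyte markers summed to 2.003 to 6.73 CPM in sham and 3.68 to 9.02 CPM in TAC. Of the 9 present, 3 had 0 counts in all libraries, among them the T cell markers Cd3d and Cd2, and 0 were tested. Markers of pericytes and smooth muscle summed to 2868 to 4704 CPM in sham and 1114 to 2455 CPM in TAC, and 4 of 11 fell. Endothelial markers summed to 223 to 299 CPM in sham and 175 to 199 CPM in TAC, and of 7 tested 1 rose and 2 fell. Cardiomyocyte markers summed to 219 to 542 CPM in sham and 307 to 628 CPM in TAC, and of 10 tested 1 rose and 1 fell. Over all genes tested, 8.28% rose and 10.4% fell. These are bulk libraries of sorted cells, so a change in the share of cells in S phase and a change in RNA per cell cannot be told apart.

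Replication genes did not move as a block after TAC. Of the 25 tested, 6 rose (Pole, Hells, Rfc2, Dut, Tyms and Mcm6) and 2 fell (Rrm1 and Slbp) at an edgeR adjusted p under 0.05, and 17 did not pass. The 6 rises are 24.0% of the tested genes, beside 8.28% of all 12612 genes tested that rose, and the 2 falls are 8%, beside 10.4% of all genes that fell. Pole, Hells and Rfc2 passed the low-count filter through their TAC libraries alone, so nothing about the group is read from the share that rose or from the median. The median log2 fold change of the 25 was 0.35, with a range from -0.98 to 2.44, and that of all genes tested was 0.011. Of the 17 genes that did not pass, 12 had a log2 fold change above 0, beside 50.8% of all genes tested. In 5 of the 17 the unadjusted edgeR p was under 0.05. Mcm2, Mcm3 and Mcm7 of these were higher in TAC, and Pcna and Pola1 were lower. In 8 genes every TAC library lay above every sham library and in 3 every TAC library lay below, beside 17.7% and 18.5% of all tested genes.

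**Figure D1:**
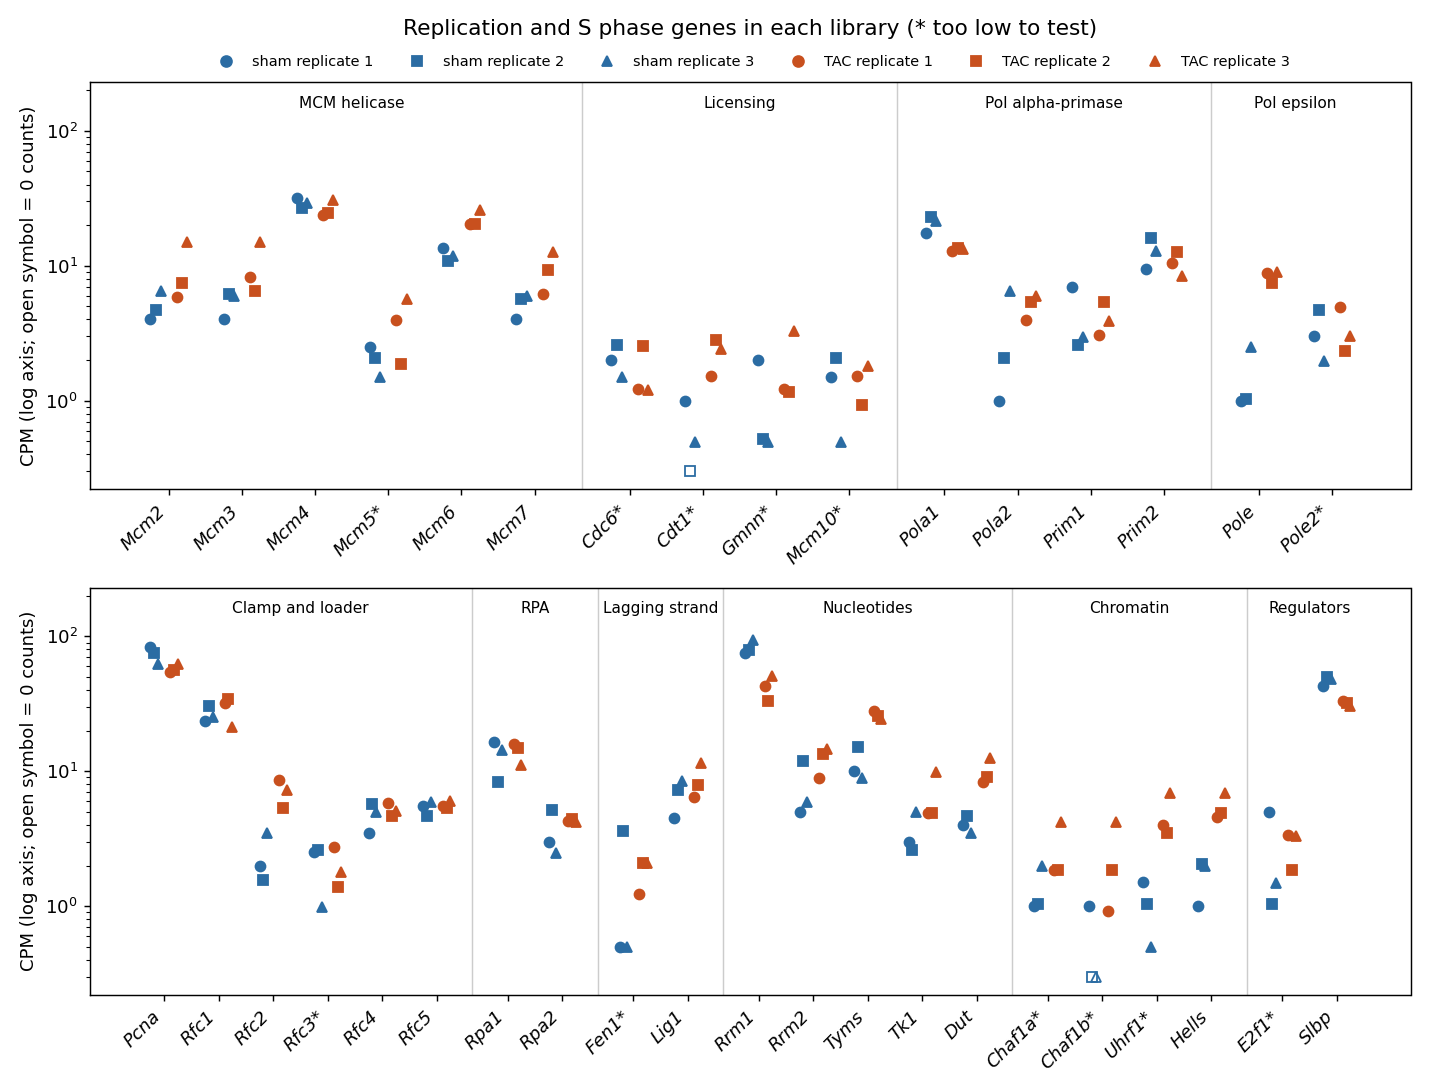
CPM of the 37 genes in each of the 6 libraries on a log axis, grouped by role, with sham in blue and TAC in orange, 1 symbol shape per replicate, open symbols for 0 counts and an asterisk on the 12 genes too low to test. Pcna, Rrm1 and Slbp stand highest in sham, and Pole, Rfc2 and Hells are near the floor in sham and clear of it in TAC.

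The proximal promoters of 5 genes are printed because these genes changed in opposite directions. Each window runs from 250 bases before to 50 bases after a transcript start, 5′ to 3′ on the gene's strand, from RefSeq in GRCm38.p6. Capitals mark the E2F motif, searched on both strands as TTTCCCGC, TTTCGCGC, TTTGCCGC and TTTGGCGC. Mcm6, Hells and Tyms rose, and Rrm1 and Slbp fell. Dut also rose, and its window, which held no match of the E2F motif, is not printed. Pole and Rfc2, which rose as well, had no window.
Mcm6, chr1:128359656-128359955, minus strand: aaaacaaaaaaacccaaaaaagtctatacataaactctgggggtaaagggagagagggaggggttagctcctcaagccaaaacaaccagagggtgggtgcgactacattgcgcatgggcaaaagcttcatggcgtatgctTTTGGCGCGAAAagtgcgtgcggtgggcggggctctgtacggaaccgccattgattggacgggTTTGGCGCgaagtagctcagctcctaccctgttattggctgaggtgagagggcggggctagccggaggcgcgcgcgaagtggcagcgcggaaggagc
Hells, chr19:38930740-38931039, plus strand: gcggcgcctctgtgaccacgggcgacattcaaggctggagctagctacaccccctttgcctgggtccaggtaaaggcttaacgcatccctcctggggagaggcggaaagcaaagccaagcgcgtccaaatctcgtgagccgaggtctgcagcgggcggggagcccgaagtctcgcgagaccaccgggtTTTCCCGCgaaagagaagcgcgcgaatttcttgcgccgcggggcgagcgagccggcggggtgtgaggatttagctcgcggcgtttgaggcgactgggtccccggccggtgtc
Tyms, chr5:30073576-30073875, minus strand: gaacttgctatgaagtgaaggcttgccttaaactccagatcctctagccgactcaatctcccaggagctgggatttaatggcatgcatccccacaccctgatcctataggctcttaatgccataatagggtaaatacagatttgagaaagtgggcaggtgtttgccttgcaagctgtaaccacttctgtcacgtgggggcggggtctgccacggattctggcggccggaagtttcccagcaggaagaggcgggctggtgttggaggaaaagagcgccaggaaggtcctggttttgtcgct
Rrm1, chr7:102441445-102441744, plus strand: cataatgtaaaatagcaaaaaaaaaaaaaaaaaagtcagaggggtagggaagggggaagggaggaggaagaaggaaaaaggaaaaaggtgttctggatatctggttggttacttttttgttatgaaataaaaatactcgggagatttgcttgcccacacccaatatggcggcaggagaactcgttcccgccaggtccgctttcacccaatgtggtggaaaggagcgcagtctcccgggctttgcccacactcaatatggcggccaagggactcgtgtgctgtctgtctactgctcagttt
Slbp, chr5:33652525-33652824, minus strand: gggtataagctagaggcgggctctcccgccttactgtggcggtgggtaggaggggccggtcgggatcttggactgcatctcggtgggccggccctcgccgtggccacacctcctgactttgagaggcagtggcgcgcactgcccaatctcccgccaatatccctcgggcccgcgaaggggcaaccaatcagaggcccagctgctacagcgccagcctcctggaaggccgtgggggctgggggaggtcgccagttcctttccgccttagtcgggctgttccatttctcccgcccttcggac

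The Mcm6 window held 3 matches, beginning 110, 106 and 47 bases before the start, of which the first 2 overlap. The Hells window held 1 match, beginning 62 bases before the start. The windows of Tyms, Rrm1 and Slbp held none, which says only that these letters are not in the window. RefSeq windows matched 32 of the 37 genes, with 37 windows in all, and 12 of the 37 windows (32.4%) held the motif, beside 2.26% of all 32851 windows of 300 bases. By gene, the motif was in 2 of 4 that rose, 0 of 2 that fell, 4 of 15 that did not pass and 6 of 11 that were too low to test. The shorter motif CCAAT, on both strands, was in 54.1% of the windows of these genes and in 37.4% of all windows, with 3 matches at Slbp, 2 at Rrm1, 2 at Mcm6 and 0 at Hells and Tyms. It was in 1 of 4 windows of genes that rose and 2 of 2 of genes that fell. A match is a description of sequence and was not tested for binding.

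The genes of the MCM2-7 helicase differed among themselves. Mcm6 (chromosome 1, 128331575 to 128359705 in GRCm38) had 13.5, 10.9 and 11.9 CPM in sham replicates 1, 2 and 3 and 20.2, 20.5 and 25.9 CPM in TAC replicates 1, 2 and 3. Every TAC value lay above every sham value, and Mcm6 rose by 0.87 ± 0.23 (SE) on the log2 scale with an edgeR adjusted p of 0.0133. Without sham replicate 2 its log2 fold change was 0.79 and it did not pass (adjusted p of 0.0651). Mcm4 (chromosome 16, 15623897 to 15637400), the subunit with most RNA, had 31.5, 26.9 and 29.3 CPM in sham and 23.9, 24.7 and 31.0 CPM in TAC. Its groups overlapped, and its log2 fold change was -0.14 ± 0.19 (edgeR adjusted p of 0.637).

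Mcm3 had 4.01, 6.22 and 5.95 CPM in sham and 8.28, 6.52 and 15.0 CPM in TAC, and Mcm7 had 4.01, 5.70 and 5.95 in sham and 6.14, 9.31 and 12.6 in TAC. In both, TAC lay above sham without overlap, but neither passed, with log2 fold changes of 0.86 ± 0.38 and 0.84 ± 0.36 (SE) and edgeR adjusted p of 0.127 and 0.116. The Mcm7 row shares 321 exon bases with Ap4m1 on the other strand in GENCODE M21, and strand was not marked by the kit. Mcm2 had a log2 fold change of 0.89 ± 0.41 and an adjusted p of 0.138. TAC replicate 3 was the highest TAC library for each of the 6 MCM2-7 genes, as it was for 22 of all 37 genes. Without it the log2 fold changes of Mcm2, Mcm3 and Mcm7 were 0.41, 0.45 and 0.59. The same library had the highest sum of macrophage markers, and their part in these values was not tested. Mcm5 was too low to test, with 12 counts over the sham libraries and 40 over the TAC libraries.

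Per length, Mcm4 RNA exceeded that of every other MCM2-7 subunit in sham. Deposited RPKM averaged 8.80 ± 0.51 for Mcm4, 4.19 ± 0.37 for Mcm6, 2.20 ± 0.48 for Mcm7, 1.89 ± 0.46 for Mcm3, 1.54 ± 0.40 for Mcm2 and 0.592 ± 0.14 for Mcm5 (SD, n = 3). The values of Mcm7, Mcm3 and Mcm2 lay within their spread of each other. In TAC, Mcm6 at 7.67 ± 1.15 RPKM stood beside Mcm4 at 7.97 ± 1.22. The RPKM ratio of Mcm6 to Mcm4 was 0.493, 0.465 and 0.468 in sham replicates 1, 2 and 3 and 0.974, 0.956 and 0.961 in TAC replicates 1, 2 and 3. These ratios rest on 21 to 27 Mcm6 counts and 52 to 63 Mcm4 counts in a sham library, and on 66 to 88 and 78 to 106 in a TAC library. Counting alone gives each ratio an error (SE) of 0.113 to 0.120 in sham and 0.138 to 0.163 in TAC, so the closeness of the replicates is no measure of precision. The ratios of Mcm2, Mcm3 and Mcm7 to Mcm4 were also higher in TAC without overlap, and that of Mcm5 overlapped. Each subunit was divided by the most abundant subunit of its complex, a choice made after the values were seen, so these 14 ratios are given with no test, and those of Mcm2, Mcm3, Mcm5, Mcm6 and Mcm7 share 1 denominator.

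**Figure D2:**
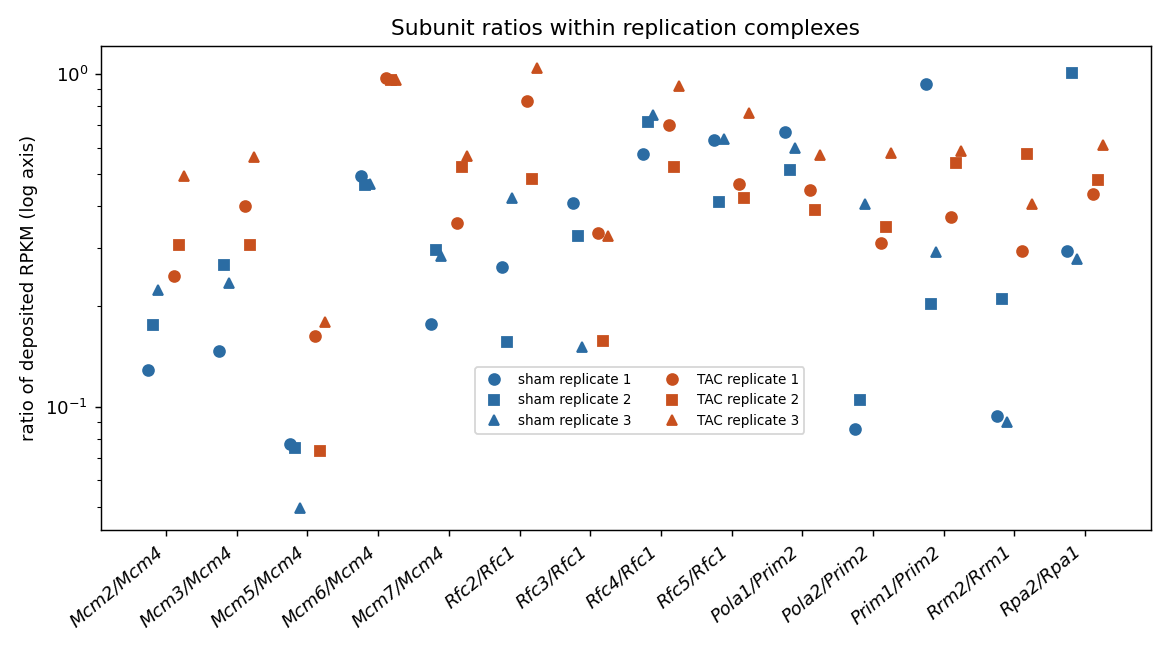
Ratio of the deposited RPKM of a subunit to that of the most abundant subunit of its complex, on a log axis, in each sham (blue) and TAC (orange) library. The Mcm6 to Mcm4 ratio sits between 0.465 and 0.493 in sham and between 0.956 and 0.974 in TAC. The 5 ratios over Mcm4 share their denominator.

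Of the set, Cdc6, Cdt1, Gmnn and Mcm10, which act at origins, were near the floor in both groups. Cdc6, a loader of the helicase, had 12 counts over the sham libraries and 19 over the TAC libraries, in which all genes together had 1.83 times as many counts. Gmnn, which encodes the Cdt1 inhibitor geminin, had 6 and 20 counts, and Mcm10, which helps to activate the loaded helicase, had 8 and 15. Cdt1, the partner of Cdc6, had 2, 0 and 1 counts in sham and 5, 12 and 8 in TAC. The scaled ratio of TAC to sham for Cdt1 was 4.55, with an exact 95% counting interval from 1.39 to 23.6. With no low-count filter Cdt1 did not pass (edgeR adjusted p of 0.0861, log2 fold change of 2.13).

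Of the polymerase subunits, only the catalytic subunit of polymerase epsilon rose among those tested. Pole (chromosome 5, 110286319 to 110337468) had 2, 2 and 5 counts in sham and 29, 32 and 30 in TAC, or 1.00, 1.04 and 2.48 CPM against 8.90, 7.45 and 9.02 CPM. Its groups did not overlap, and Pole rose by 2.44 ± 0.44 (SE) on the log2 scale at an edgeR adjusted p of 0.00103, from 9 sham counts in all. It passed in all 14 alternative analyses, with log2 fold changes from 0.86 (on log2 of RPKM plus 1, which compresses low values) to 2.99. Pole2, the second subunit, was too low to test, with 19 counts over the sham libraries and 36 over the TAC libraries.

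Polymerase alpha-primase showed no rise that passed. Pola1, its catalytic subunit (chromosome X, 93304766 to 93632387), had 17.5, 22.8 and 21.3 CPM in sham and 12.9, 13.5 and 13.2 CPM in TAC. Every TAC value was below every sham value, yet its log2 fold change of -0.63 ± 0.22 (SE) had an edgeR adjusted p of 0.0530. Without sham replicate 1 it passed, with a log2 fold change of -0.74 and an adjusted p of 0.0487. Prim2 and Prim1, the primase subunits, had log2 fold changes of -0.28 ± 0.28 and -0.0084 ± 0.45 and did not pass. Pola2 had 1.00, 2.07 and 6.45 CPM in sham and 3.99, 5.36 and 6.01 CPM in TAC, and sham replicate 3 was its highest library of all. Its log2 fold change was 0.68 ± 0.50 (edgeR adjusted p of 0.369). It was 1.71 without sham replicate 3 (adjusted p of 0.0688) and 0.25 without sham replicate 1 (0.784), and passed in neither.

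Of the clamp and its loader, Rfc2 rose and no gene fell past the threshold. Pcna (chromosome 2, 132249286 to 132253180) had 83.1, 75.6 and 62.51 CPM in sham and 54.3, 56.1 and 62.55 CPM in TAC. The lowest sham library and the highest TAC library were almost level, and the log2 fold change of -0.36 ± 0.15 (SE) did not pass (edgeR adjusted p of 0.115). Pcna has pseudogenes in GENCODE M21 (Pcna-ps1 and Pcna-ps2), and the treatment of reads that match both a gene and its copy is a step not given in the sources used here. Rfc2, a small subunit of replication factor C (chromosome 5, 134582690 to 134598328), had 2.003, 1.55 and 3.47 CPM in sham and 8.59, 5.36 and 7.22 CPM in TAC. These groups did not overlap, and Rfc2 rose by 1.55 ± 0.43 with an adjusted p of 0.0179. The sham values rest on 4, 3 and 7 counts.

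The Rfc2 call was lost without sham replicate 1 (1.44 on the log2 scale, edgeR adjusted p of 0.0679), sham replicate 2 (1.33, 0.0956) or TAC replicate 1 (1.39, 0.0580), and with DESeq2 (1.58, 0.0503). Exons of Lat2 on the other strand share 952 bases with Rfc2 in the annotation. Those of Eif4a2 and Wsb2, also on the other strand, share 194 bases with Rfc4 and 499 with Rfc5. Rfc1, the large subunit, had 23.5, 30.6 and 25.3 CPM in sham and 31.9, 34.2 and 21.4 CPM in TAC, which overlap, and its log2 fold change was 0.15 ± 0.21. Rfc4 and Rfc5 had log2 fold changes of 0.13 ± 0.36 and 0.062 ± 0.34 and did not pass, and Rfc3 was too low to test, at 12 and 21 counts. The RPKM ratio of Rfc2 to Rfc1 was 0.281 ± 0.134 in sham and 0.785 ± 0.283 in TAC (SD, n = 3), without overlap, while those of Rfc3, Rfc4 and Rfc5 to Rfc1 overlapped.

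Genes that protect and join DNA strands at the fork did not pass. Rpa1 and Rpa2, subunits of the single-strand binding protein RPA, had log2 fold changes of 0.098 ± 0.28 and 0.28 ± 0.41 (SE). Lig1, the ligase that seals lagging-strand fragments, had one of 0.35 ± 0.35, with an edgeR adjusted p of 0.523. Fen1, the flap nuclease of the same step, had 9 and 20 counts and was not tested. Its exons share 1909 of 2422 bases with the antisense gene Gm10143, so its few reads cannot be assigned to it with certainty.

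Nucleotide supply was split between enzymes that rose and the large reductase subunit, which fell. Tyms, thymidylate synthase (chromosome 5, 30038546 to 30073645), had 10.01, 15.0 and 8.93 CPM in sham and 28.2, 25.6 and 24.4 CPM in TAC. It rose by 1.20 ± 0.23 (SE) on the log2 scale with an edgeR adjusted p of 0.00189, without overlap, and passed in all 14 alternatives. Tyms also has a pseudogene in GENCODE M21 (Tyms-ps), and the limit given for reads of Pcna and its copies holds here too. Dut, the dUTPase that keeps uracil out of DNA (chromosome 2, 125247248 to 125259049), had 4.01, 4.66 and 3.47 CPM in sham and 8.28, 9.08 and 12.6 CPM in TAC. It rose by 1.29 ± 0.35 (adjusted p of 0.0155), also without overlap, and did not pass without sham replicate 3 (1.19, adjusted p of 0.0662).

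Rrm1, the large subunit of ribonucleotide reductase (chromosome 7, 102441695 to 102469771), had 75.6, 79.8 and 93.3 CPM in sham and 42.6, 33.1 and 51.1 CPM in TAC. All TAC libraries were below all sham libraries, and Rrm1 fell by 0.98 ± 0.17 (SE) on the log2 scale with an edgeR adjusted p of 0.000835, past the threshold in all 14 alternatives. Rrm2, the small subunit that in cycling cells accumulates in S phase, had 5.01, 11.9 and 5.95 CPM in sham and 8.90, 13.5 and 14.7 CPM in TAC. Those groups overlapped, and the log2 fold change was 0.71 ± 0.34 (edgeR adjusted p of 0.161). The RPKM ratio of Rrm2 to Rrm1 was 0.131 ± 0.0687 in sham and 0.426 ± 0.142 in TAC (SD, n = 3), without overlap. Tk1, the cytosolic thymidine kinase, had a log2 fold change of 0.87 ± 0.43 and did not pass (adjusted p of 0.169), and without TAC replicate 3 the value was 0.47.

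Genes that restore chromatin behind the fork were low in sham. Hells, a chromatin remodeller tied to DNA methylation (chromosome 19, 38930262 to 38970470), had 2, 4 and 4 counts in sham and 15, 21 and 23 in TAC, or 1.00, 2.07 and 1.98 CPM against 4.60, 4.89 and 6.92 CPM. It rose by 1.67 ± 0.46 (SE) with an edgeR adjusted p of 0.0186 and without overlap. The call was lost without sham replicate 1, 2 or 3 (adjusted p of 0.0885, 0.0552 and 0.0544, log2 fold changes of 1.40, 1.83 and 1.80) and with DESeq2 (0.0711, 1.70), and Hells was too low to test without TAC replicate 2 or 3. Uhrf1, which brings the maintenance methyltransferase to replicated DNA, had 6 counts in sham and 51 in TAC and missed the filter. With no filter it passed (edgeR adjusted p of 0.00344), at 2.24 ± 0.61 on the log2 scale. The fit with no filter gave some genes far smaller p-values than the main fit. The mitosis gene Mki67, for one, had an edgeR adjusted p of 4.2e-64 there and 3.1e-06 in the main fit. A pass with no filter is therefore not read as a call.

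The histone chaperone CAF-1 was near the floor. Chaf1b, its middle subunit, had 2, 0 and 0 counts in sham and 3, 8 and 14 in TAC, a scaled ratio of 6.83 with an exact 95% counting interval from 1.70 to 59.5. With no filter it passed (edgeR adjusted p of 0.0378), under the limit given for Uhrf1, and TAC replicate 3 held most of its reads. Chaf1a, the large subunit, had 8 and 28 counts and shares 4648 of 8854 exon bases with Ubxn6 on the other strand, and with no filter it did not pass (adjusted p of 0.387).

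Of the 2 regulators in the set, Slbp fell. It encodes the protein that binds the stem-loop of replication-dependent histone mRNAs (chromosome 5, 33640055 to 33652574). Gm10459 on the other strand shares 474 of its 6076 exon bases. Slbp had 42.6, 50.2 and 48.6 CPM in sham and 33.4, 31.9 and 30.7 CPM in TAC, with no overlap. It fell by 0.56 ± 0.16 (SE) on the log2 scale with an edgeR adjusted p of 0.0245. The call was lost without sham replicate 2 (log2 fold change of -0.52, adjusted p of 0.0992), sham replicate 3 (-0.54, 0.0748) or TAC replicate 2 (-0.55, 0.0875), with DESeq2 (-0.56, 0.0572) and with no filter (-0.50, 0.0593). E2f1, the transcription factor, had 10, 2 and 3 counts in sham and 11, 8 and 11 in TAC and was too low to test.

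**Figure D3:**
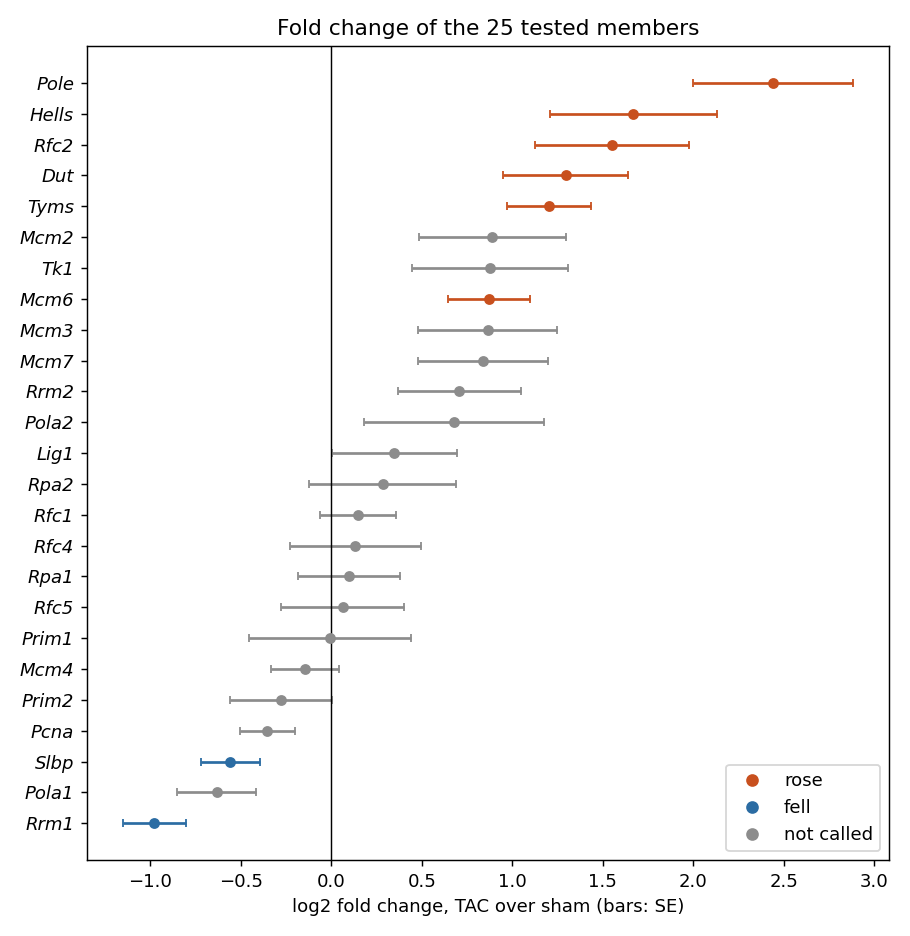
Log2 fold change of TAC over sham for the 25 tested genes, with bars for the SE, from the edgeR fit over all genes. The 6 genes that rose range from 0.87 (Mcm6) to 2.44 (Pole), the 2 that fell are Rrm1 at -0.98 and Slbp at -0.56, and Mcm2, Tk1, Mcm3 and Mcm7 reach the size of Mcm6 with wider errors.

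The 12 genes too low to test had 112 counts over the sham libraries and 330 over the TAC libraries, with 0 to 23 in a library, and 10 of the 12 had a higher mean CPM in TAC.

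The sum over all 37 genes overlapped between the groups, while its largest parts and the rest lay on opposite sides. It was 399.6, 425.3 and 412.2 CPM in sham replicates 1, 2 and 3 and 396.0, 392.8 and 459.5 CPM in TAC replicates 1, 2 and 3. Rrm1, Pcna and Slbp, the 3 highest in sham, summed to 201.3, 205.7 and 204.4 CPM in sham and 130.4, 121.1 and 144.3 CPM in TAC. Their share of the whole sum was 49.4% in sham and 31.7% in TAC. The other 34 genes summed to 198.3, 219.6 and 207.9 CPM in sham and 265.7, 271.7 and 315.1 CPM in TAC. This split was made after the levels were seen, and it is given with no test. Per length the order began with Pcna (58.8 ± 7.70 RPKM in sham, 45.9 ± 4.06 in TAC; SD, n = 3), Slbp (29.1 ± 3.09 and 19.7 ± 0.68) and Rrm1 (28.0 ± 3.38 and 14.2 ± 2.90) in both groups. Slbp and Rrm1 lay within their spread of each other in sham. Tyms went from place 12 in sham to place 4 in TAC, and Pola1 from place 10 to place 21.

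Other genes of the pathway were read from 6 lists. Among 12 tested genes of origin recognition, licensing and the helicase, edgeR called 0, with 1 at an unadjusted p under 0.05, and DESeq2 and limma voom called 0 as well, and the list's median log2 fold change was -0.011. Orc3 (listed as Orc3l), an origin recognition subunit, averaged 58.6 ± 6.82 CPM in the sham group (SD, n = 3) and 52.7 ± 9.23 after TAC. Mcmbp (listed as 1110007A13Rik), which binds MCM proteins, averaged 50.7 ± 10.1 and 47.3 ± 5.81 CPM. Among 18 tested polymerase, fork and clamp loader genes, 1 rose (5.56%, beside 8.28% of all genes tested) and the median was 0.12. The gene was Top2a, the topoisomerase of dividing cells, with 5, 2 and 39 counts in sham and 161, 219 and 188 in TAC, and it rose by 2.75 ± 0.45 on the log2 scale (edgeR adjusted p of 0.000430). Sham replicate 3 held most of its sham reads, and DESeq2 did not call it (adjusted p of 0.0627, log2 fold change of 2.78). Without that library the log2 fold change was 4.84.

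Of 28 tested genes of nucleotide synthesis, 2 fell (7.14%, beside 10.4% of all genes tested), and the median log2 fold change was 0.028. Impdh2, which makes guanine nucleotides, had 47.1, 47.7 and 48.1 CPM in sham and 25.8, 25.4 and 29.5 CPM in TAC, and fell by 0.83 ± 0.17 on the log2 scale (edgeR adjusted p of 0.00237). Rrm2b, the reductase subunit used outside S phase, had 41.1, 43.0 and 50.1 CPM in sham and 28.8, 29.3 and 26.5 CPM in TAC (-0.66 ± 0.17, adjusted p of 0.0120). Without sham replicate 3 Rrm2b did not pass (-0.58, 0.0608). Its fall stood beside that of Rrm1, with both groups apart in each.

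Among 18 tested E2F, RB and cyclin-CDK regulators, 2 rose and 2 fell, with a median of -0.08. Each is 11.1% of the list, beside 8.28% of all genes tested that rose and 10.4% that fell. Ccna2, cyclin A2, had 5.01, 3.11 and 9.43 CPM in sham and 21.8, 21.9 and 36.4 CPM in TAC, and rose by 2.17 ± 0.34 (SE; edgeR adjusted p of 0.000277). Cks1b, a CDK-binding protein, rose by 1.26 ± 0.35 (adjusted p of 0.0191), and did not pass without sham replicate 3 (0.92, 0.0991). The CDK inhibitors Cdkn1a (p21) and Cdkn1c (p57) fell, with log2 fold changes of -0.72 ± 0.15 and -1.11 ± 0.23 (adjusted p of 0.00358 and 0.00309). The mean of Cdkn1a was 802.2 ± 75.5 CPM with sham and 486.4 ± 92.5 CPM with TAC (SD, n = 3).

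The lists of chromatin assembly and of cohesion and repair had medians of -0.14 and -0.075. The chromatin list had 1 call, a rise (6.25% of its tested genes, beside 8.28% of all genes tested). Of 16 tested chromatin genes, Atad2 rose by 0.49 ± 0.17 (SE; edgeR adjusted p of 0.0484), a call kept in only 5 of 14 alternatives and lost, for example, with the replicate block (0.50, 0.0674) and without sham replicate 2 (0.44, 0.169), sham replicate 3 (0.41, 0.175), TAC replicate 2 (0.48, 0.130) or TAC replicate 3 (0.45, 0.0895). Of 15 tested genes of cohesion and repair, 2 rose (13.3%) and 1 fell (6.67%), beside 8.28% and 10.4% of all genes tested. Brca1, which passed the filter through TAC libraries alone, rose by 1.81 ± 0.49 from 2, 2 and 4 sham counts (adjusted p of 0.0173), and the checkpoint kinase Chek1 rose by 1.35 ± 0.39 (0.0222). Brca1 passed in 6 of 11 alternatives. It did not pass without sham replicate 1 (1.63, 0.0777) or 2 (1.65, 0.0889), with DESeq2 (1.85, 0.0713) or on log2 of RPKM plus 1 (0.53, 0.0789) or plus 0.1 (1.48, 0.0589), and was too low to test without any 1 TAC replicate. Chek1 did not pass without sham replicate 2 (1.28, 0.0899), sham replicate 3 (1.14, 0.109) or TAC replicate 2 (1.34, 0.0619), or with DESeq2 (1.36, 0.0748). Smc1a, a cohesin subunit, fell by 0.89 ± 0.15 on the log2 scale (edgeR adjusted p of 0.000662), and its mean was 276.5 ± 21.7 CPM with sham and 149.5 ± 30.7 CPM with TAC (SD, n = 3).

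Mitosis genes were read in the same libraries. Of 36 tested genes of mitosis, 36 rose (34 by DESeq2), beside 8.28% of all genes tested. Their log2 fold changes were 0.81 or more, with a median of 2.45. As 18 of the 36 passed the low-count filter through TAC libraries alone, this count and median are not set against those of the replication genes. For the same reason nothing about the list is read from the share that rose. The other 18, which reached the filter level in a sham library too, rose as well. Summed CPM of the mitosis list was 177.2, 195.8 and 277.8 in sham replicates 1, 2 and 3 and 835.9, 971.4 and 1087 in TAC replicates 1, 2 and 3. No test of the difference between the lists was made. Mki67 rose by 3.04 ± 0.30 (SE), Hmmr by 3.27 ± 0.31, Anln by 2.98 ± 0.25 and Cenpf by 2.36 ± 0.20, each in all 14 alternatives. Mki67 had 32, 32 and 109 counts in sham, and its log2 fold change was 3.86 without sham replicate 3, which was the highest sham library for it, as for Top2a and Ccna2. Among the replication genes that rose, it was the highest sham library for Pole and Rfc2 but not for Tyms, Dut, Mcm6 or Hells.

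**Figure D4:**
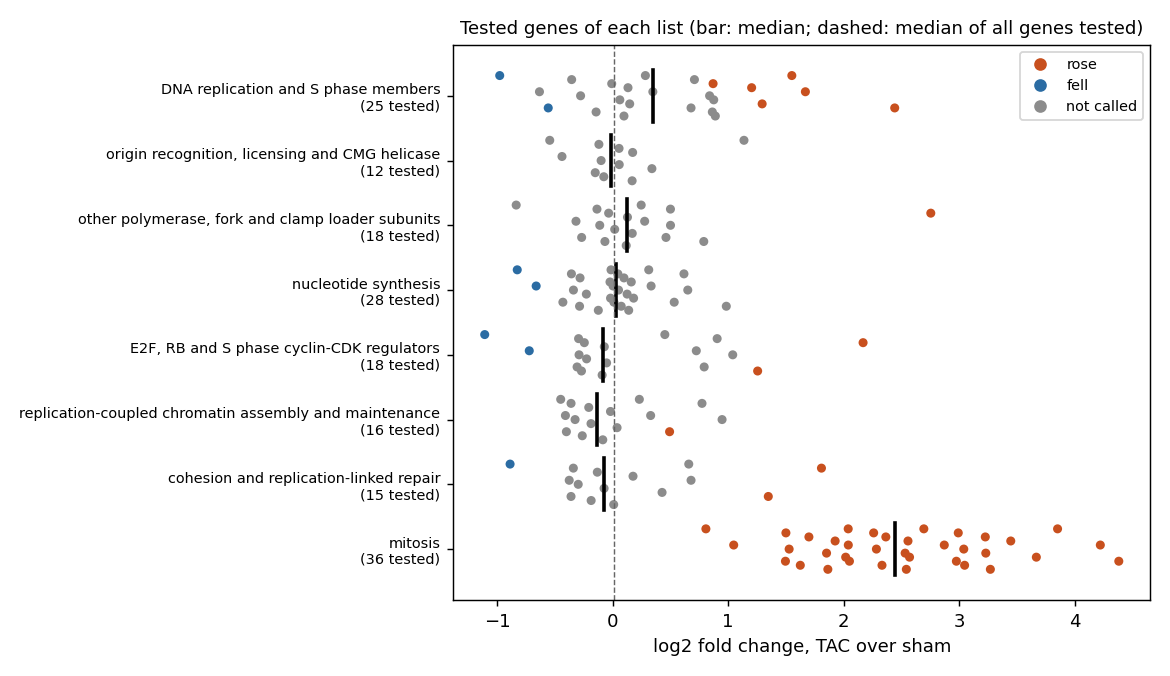
Log2 fold change of TAC over sham for each tested gene of the replication set, of 6 further lists of the pathway and of a mitosis list, colored by call, with a bar at each median and a dashed line at the median of all genes tested. The replication set spreads from -0.98 to 2.44 around a median of 0.35, and the 36 mitosis genes, 18 of which passed the filter through TAC alone, lie at 0.81 or higher. Because of that filter the mitosis median is not to be compared with the replication median.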

How the data were processed

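RNA of 6 libraries was sequenced from a TruSeq kit that does not mark strand. The authors deposited 1 report per library with read counts per gene, written by NextGENe 2.3.3 according to the header lines (per the file headers). The same deposited reports hold RPKM, which scale a count by row length and library. The submitters' processing notes name mm10 and Partek 6.6 without a role. The treatment of reads with several matches was not given in the sources used here. Counts of rows with the same symbol were summed. Genes were kept by filterByExpr at 3.70 CPM or more (by plain totals) in 3 libraries, which is a count of 10 at the median library size. A deeper library therefore needs more than 10 counts. Kept genes were scaled by TMM and tested with edgeR 4.0.16 in R 4.3.3, two-sided. Benjamini-Hochberg adjustment was over all 12612 genes tested, with a threshold of 0.05. CPM uses TMM library sizes unless stated, and SE comes from the quasi-likelihood F statistic. Alternatives used limma 3.58.1, DESeq2 1.42.0, other scalings, no filter, a replicate block and each library left out. The steps were tested on simulated data, in which no changed gene was as low in sham as Pole, Hells and Rfc2. The simulation therefore says nothing about calls at such low counts. The genes and lists were chosen with earlier results of these data known. All genes of the set were named, with library values for called genes, for the 4 uncalled with the highest CPM and for those whose groups did not overlap; from each list the 4 called with the smallest adjusted p were named, or the 2 with the highest CPM. Subunit ratios, sums and printed promoters were chosen after values were seen. List symbols were matched through RefSeq (GRCm38.p6), which also gave coordinates and promoters. Chi-square per degree of freedom between libraries of a group was 3.38 to 14.1, so no library was a repeat of another.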

Additional observations from a re-analysis of the deposited data

How the results depend on the processing

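Direction held for the 8 called genes in every alternative that could test them, and Pole, Tyms and Rrm1 passed in all 14. Over the 25 tested genes, 316 of the values from alternatives kept direction and side of the threshold, 15 lost a call, 1 gained one and 12 changed sign. Leaving out 1 library gave 4 to 8 calls among the replication genes (3 to 5 higher, 1 to 3 lower) and 1454 to 2261 over all genes (571 to 997 higher, 883 to 1264 lower). The lowest counts over all genes were without sham replicate 2 (1454 called, 571 higher), and leaving out sham replicate 3 gave 1601 called and 683 higher. Among the replication genes, 1 was lower without sham replicate 2, sham replicate 3 or TAC replicate 2, and 4 and 5 were called without sham replicate 2 and 3. The median log2 fold change of the replication genes ranged from 0.29 to 0.66, the last without TAC replicate 1. The 4 calls were Dut, Pole, Tyms and Rrm1, without sham replicate 2. With no low-count filter 1579 genes were higher, and 8 replication genes were higher and 1 lower. Uhrf1 and Chaf1b, too low for the main test, were among the 8, and their passes are not read as calls. DESeq2 called 5 replication genes, 4 higher and 1 lower. With the replicate block 6 were higher and 2 lower, as without it. Same-numbered libraries did not deviate together more than others. Their correlations were 0.0824, 0.0251 and -0.0862, and those of differently numbered libraries ran from -0.115 to 0.0832. With 3 libraries per group this cannot exclude a shared batch, and the main test used no pairing. The sign changes were all in genes that did not pass. Prim1 changed from -0.0084 to 0.0381 (upper quartile scaling), 0.0447 (no filter), 0.00996 (replicate block), 0.0644 (limma voom), 0.0393 and 0.0714 (log2 of RPKM plus 1 and plus 0.1), and ranged from -0.26 to 0.57 without 1 library. Rfc4 ranged from -0.048 to 0.28, Rfc5 from -0.037 to 0.14 and Rpa1 from -0.15 to 0.29 without 1 library. The cause of these changes was not tested. Depth limits the 12 genes that were not tested and the fold changes of Pole, Hells and Rfc2.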
